A study of Mus musculus with 6 samples.

Results

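Platelets stick to an injured vessel wall through a small set of surface receptors, and 10 genes that encode them were examined here: Gp1ba, Gp1bb, Gp5, Gp9, Gp6, Clec1b, Itga2b, Itgb3, Cd9 and Cd226. They were taken by gene symbol, and each matched a single Ensembl ID among the 24376 IDs of the tables. RNA sequencing had been done on blood progenitors of C57BL/6 mouse fetal liver, isolated at E14.5, infected with a retrovirus directly afterwards and kept in culture for 3 days. The retrovirus carried a short hairpin RNA (shRNA) against Samd14 in 3 samples (shSamd14) and a control shRNA in 3 (control). Each library was made from 200000 cells without CD71 or Ter119 at the surface, proteins that red cell precursors gain as they mature. The sources used here give neither the hairpin sequences nor the target of the control shRNA. The labels do not say whether replicates were separate embryos or cultures, so p-values measure the spread between these samples only.

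Platelets are shed by megakaryocytes, which arise from progenitors shared with red cells. Integrin alpha IIb (Itga2b, CD41) and its partner beta 3 (Itgb3) appear early on this lineage and form the fibrinogen receptor, and Cd9, a tetraspanin that sits beside them, is also found on early progenitors. The glycoprotein Ib-IX-V complex, which catches von Willebrand factor, and the activating receptors glycoprotein VI (Gp6, for collagen) and CLEC-2 (Clec1b, for podoplanin) mark later steps of maturation. Cd226 encodes DNAM-1, an adhesion receptor shared by platelets, NK cells and T cells. On this textbook order Itga2b, Itgb3 and Cd9 were counted as early, Gp1ba, Gp1bb, Gp5, Gp9, Gp6 and Clec1b as late, and Cd226 as neither.

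The shSamd14 libraries held 23862151 to 26462797 estimated counts and the control libraries 20584169 to 24069711. The hairpin's target was lower in every library that received it: Samd14 had 41.9, 38.8 and 39.4 CPM (counts scaled by library total, with TMM factors) in shSamd14 and 82.0, 82.1 and 83.8 CPM in control, a log2 fold change of -1.05 (SE 0.06, edgeR adjusted p = 4.69e-07). The sorted fraction carried progenitor and megakaryocyte transcripts beside those of other blood cells. Kit, the stem cell factor receptor, had 422 to 474 CPM in shSamd14 and 495 to 656 CPM in control. Pf4, 1 of 8 megakaryocyte markers used here, had 60.6 to 72.8 CPM in shSamd14 and 44.8 to 52.6 CPM in control. Transcripts of CD71 (Tfrc) were also plentiful, with 782 to 876 CPM in shSamd14 and 869 to 979 CPM in control, although the cells had been sorted as lacking the protein.

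Of the 10 receptor genes, all of which had enough counts to be tested, Gp5 and Clec1b rose in shSamd14 and none fell. Each gene was tested with the quasi-likelihood test of edgeR, with Benjamini-Hochberg adjustment over 12670 genes and an adjusted p under 0.05 as the threshold. In the same fit 1.32% of all tested genes were called higher and 1.26% lower. Without adjustment 7 of the 10 genes had a p under 0.05, all higher, against 7.07% of all tested genes higher and 7.92% lower at that cut. DESeq2 called 3 higher and none lower, and limma-voom called 2 higher and none lower. Single libraries bore on the count: Gp5 alone passed without shSamd14 replicate 1 or 3, Cd226 alone without control replicate 2, Gp5, Itga2b and Itgb3 without control replicate 1, and none without shSamd14 replicate 2 or control replicate 3, where 5 and 4 had an unadjusted edgeR p under 0.05. The log2 fold change was positive for 9 of the 10, against 51.6% of all tested genes. Its median was 0.31 over the 10 and 0.006 over all tested genes. By TMM-scaled CPM, every shSamd14 library lay above every control library in 7 genes, which held for 10.5% of all tested genes. RNA from a mixture of cells was measured, so more cells carrying a transcript and more transcript per cell cannot be told apart.

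**Figure D1:**
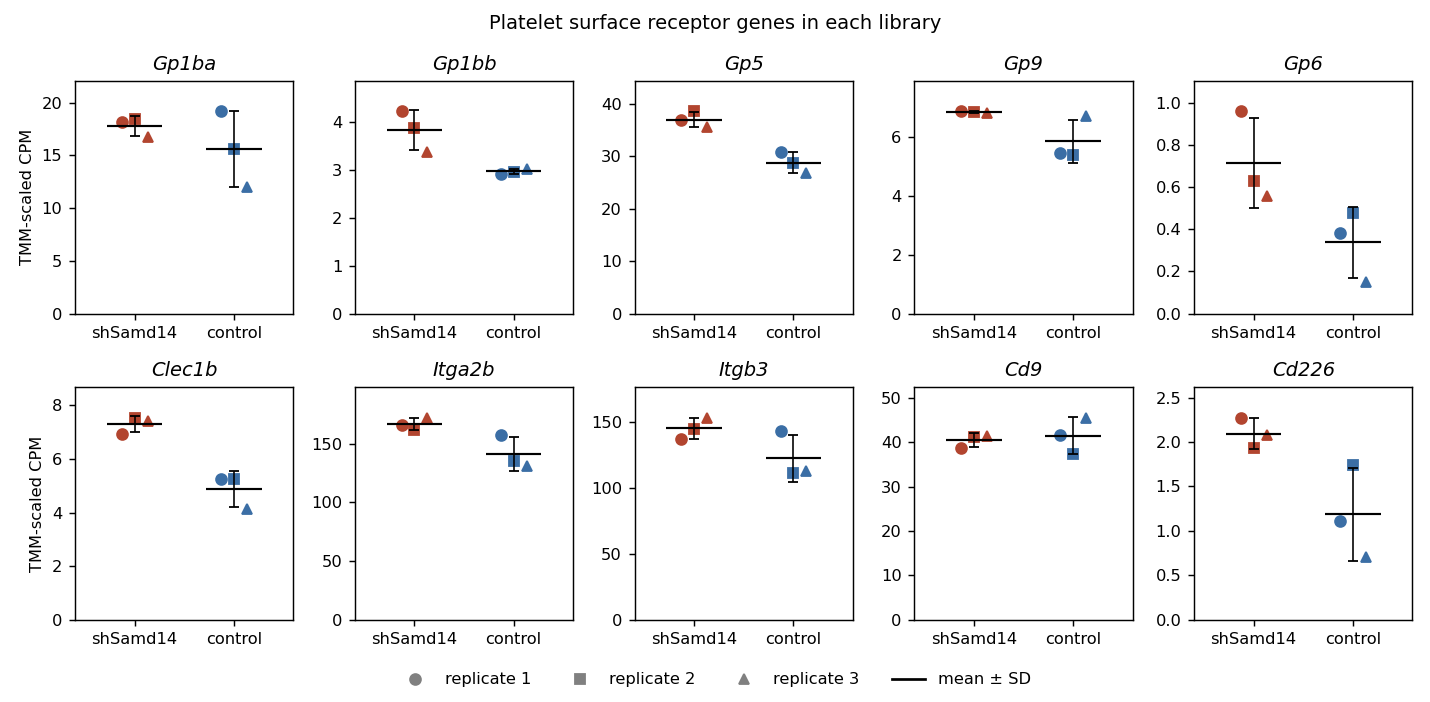
Each panel plots 1 receptor gene, with TMM-scaled CPM on a linear axis from 0, shSamd14 libraries on the left and control libraries on the right; symbols are replicates and bars the mean ± SD of 3 libraries. The groups do not overlap for Gp5, Clec1b, Gp1bb, Gp9, Gp6, Itga2b and Cd226, and they overlap for Gp1ba, Itgb3 and Cd9.

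Gp5, the glycoprotein V gene, gave the clearest difference. It had 36.9, 38.6 and 35.6 CPM in shSamd14 and 30.8, 28.8 and 26.9 CPM in control. The lowest shSamd14 library was well above the highest control library, and the libraries of each group lay close together. The means were 37.0 ± 1.49 CPM in shSamd14 and 28.8 ± 1.94 CPM in control (SD, n = 3 each), 1.29-fold, a log2 fold change of 0.36 (SE 0.08, edgeR adjusted p = 0.0182). Gp5 missed the threshold without shSamd14 replicate 2 (edgeR adjusted p = 0.113), without control replicate 2 (0.0520) and without control replicate 3 (0.0762), at log2 fold changes of 0.33, 0.36 and 0.31. Over all 15 other fits its adjusted p lay between 0.00312 and 0.113.

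The other subunits of the glycoprotein Ib-IX-V complex did not pass. Gp1ba, the chain that holds the von Willebrand factor site, had 18.2, 18.4 and 16.7 CPM in shSamd14 and 19.2, 15.6 and 12.04 CPM in control. Its control libraries were widely spread, with replicate 1 above all shSamd14 libraries, and the log2 fold change of 0.19 (SE 0.14, edgeR adjusted p = 0.581) lay between 0.03 and 0.36 when 1 library was left out. Gp1bb, the chain linked to it by a disulfide bond, had 4.23, 3.89 and 3.39 CPM in shSamd14 and 2.92, 2.97 and 3.03 CPM in control, a log2 fold change of 0.37 (SE 0.16, edgeR adjusted p = 0.296). The groups were apart, but Gp1bb (chromosome 16, 18620317 to 18622403, minus strand) overlaps Sept5 on the same strand, so reads of the shared stretch may have been divided between them. Sept5, which encodes a septin, had 4.48, 4.06 and 6.17 CPM in shSamd14 and 4.28, 2.65 and 5.93 CPM in control (edgeR adjusted p = 0.807). Gp9, the glycoprotein IX gene, had 6.87, 6.83 and 6.82 CPM in shSamd14 and 5.46, 5.401 and 6.70 CPM in control, a log2 fold change of 0.22 (SE 0.13, edgeR adjusted p = 0.478). Its groups were separated only by the small gap between the lowest shSamd14 library and control replicate 3.

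Within the complex the proportions of the transcripts were not separated between the groups. Per length, as TPM, the ratio of Gp5 to Gp1ba was 2.40, 2.50 and 2.52 in shSamd14 and 1.91, 2.23 and 2.63 in control. That of Gp9 to Gp1ba was 1.28, 1.26 and 1.37 in shSamd14 and 0.963, 1.19 and 1.86 in control. The control ratios reached both below and above those of shSamd14 in each case, as did the ratio of Gp1bb to Gp1ba, at 0.340, 0.301 and 0.286 in shSamd14 and 0.216, 0.274 and 0.354 in control. Summed over the 4 subunits, the complex had 66.2, 67.8 and 62.6 CPM in shSamd14 and 58.3, 52.8 and 48.7 CPM in control. The summed means were 65.5 ± 2.65 and 53.2 ± 4.85 CPM in shSamd14 and control (SD, n = 3 each).

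Clec1b encodes CLEC-2, which signals through Syk when it meets podoplanin. It had 6.95, 7.54 and 7.41 CPM in shSamd14 and 5.26, 5.27 and 4.12 CPM in control. The groups were clearly apart, with means of 7.30 ± 0.313 CPM in shSamd14 and 4.89 ± 0.662 CPM in control (SD, n = 3 each), 1.497-fold. The log2 fold change was 0.58 (SE 0.14, edgeR adjusted p = 0.0388). The call was lost in each of the 6 fits with 1 library left out, with edgeR adjusted p-values of 0.0701, 0.153 and 0.0882 without shSamd14 replicates 1, 2 and 3 and of 0.0936, 0.0556 and 0.125 without control replicates 1, 2 and 3, while the log2 fold change stayed between 0.46 and 0.64. Over all 15 other fits the adjusted p lay between 0.00677 and 0.153. Clec1b (chromosome 6, 129397297 to 129409335, plus strand) shares part of its locus with Clec9a on the same strand, a lectin gene that had 1.198, 1.17 and 1.22 CPM in shSamd14 and 1.01, 0.915 and 0.999 CPM in control.

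Gp6, the collagen receptor gene, was barely detected. It had 24, 15 and 15 estimated counts in shSamd14 and 7.94, 11 and 3.6 in control, or 0.958, 0.629 and 0.556 CPM against 0.384, 0.479 and 0.1498 CPM. All shSamd14 libraries were higher, and the log2 fold change of 1.05 was imprecise (SE 0.40, edgeR adjusted p = 0.212). With 3 counts worth 0.113 to 0.146 CPM, control replicate 3 was close to what counting can resolve.

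The base sequence before the transcription start is shown for Gp5 and Clec1b, which rose, for Gp1ba, which has the same arrangement of words as Gp5, and for Itga2b and Cd9, the early genes in the promoter table. GATA and ETS family transcription factors, GATA1 and FLI1 among them, are known regulators of megakaryocyte promoters. The sequences are from RefSeq (GRCm38.p6, the assembly of mm10), run 5′ to 3′ along the gene's strand and end at the last base before the annotated start. Capitals mark 2 words of the GATA family, AGATAA and TGATAA, and the word AGGAAG of the ETS family, searched on both strands in 250 bases; no matches overlapped in the promoters shown.
Gp5, chr16:30310782-30310891, minus strand: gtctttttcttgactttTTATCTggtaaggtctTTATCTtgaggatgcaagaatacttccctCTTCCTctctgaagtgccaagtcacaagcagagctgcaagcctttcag
Gp1ba, chr11:70639008-70639121, plus strand: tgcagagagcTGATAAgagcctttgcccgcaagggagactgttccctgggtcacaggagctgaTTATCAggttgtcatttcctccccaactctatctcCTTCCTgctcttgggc
Clec1b, chr6:129397098-129397296, plus strand: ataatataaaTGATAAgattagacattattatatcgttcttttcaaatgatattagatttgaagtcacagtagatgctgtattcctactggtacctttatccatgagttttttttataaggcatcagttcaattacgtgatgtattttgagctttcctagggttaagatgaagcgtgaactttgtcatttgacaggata
Itga2b, chr11:102469884-102470018, minus strand: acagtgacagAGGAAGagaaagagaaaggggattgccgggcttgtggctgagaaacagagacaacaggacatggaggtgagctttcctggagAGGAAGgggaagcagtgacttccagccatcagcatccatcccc
Cd9, chr6:125494761-125494973, minus strand: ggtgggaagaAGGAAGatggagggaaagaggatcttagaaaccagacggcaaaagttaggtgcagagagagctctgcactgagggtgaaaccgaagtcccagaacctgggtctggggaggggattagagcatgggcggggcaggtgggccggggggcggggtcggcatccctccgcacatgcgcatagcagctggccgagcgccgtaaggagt

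The promoters of Gp5 and Gp1ba shared a layout. Each held a pair of GATA words followed, nearer the start, by an ETS word: 93, 77 and 48 bases before the start in Gp5, and 104, 51 and 16 bases before it in Gp1ba. Clec1b held a GATA word 189 bases before its start and Gp6 a GATA word 144 bases before its start, neither with an ETS word. Itga2b, Cd9 and Gp9 held ETS words and no GATA word of these spellings, and Gp1bb held none. Of the 8 receptor genes in the promoter table, 4 held a GATA word, 5 an ETS word and 2 held both kinds. Among the promoters of tested genes these shares were 9.7%, 28.3% and 3.2%, and among all 27025 promoters of that length 17.0%, 29.2% and 4.8%. A word match describes the letters of the window and does not show binding.

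Neither gene of the fibrinogen receptor passed the threshold with all libraries. Itga2b had 166, 162 and 172 CPM in shSamd14 and 157, 135 and 131 CPM in control. In CPM the groups did not overlap, although control replicate 1 came within a few CPM of the lowest shSamd14 library. In TPM they did overlap, with 78.8 in control replicate 1 and 78.5 in shSamd14 replicate 1. The means were 167 ± 5.21 CPM in shSamd14 and 141 ± 14.3 CPM in control (SD, n = 3 each), a log2 fold change of 0.24 (SE 0.07) that missed the threshold (edgeR adjusted p = 0.0985). Itgb3 had 137, 145 and 153 CPM in shSamd14 and 143, 111 and 112 CPM in control, a log2 fold change of 0.25 (SE 0.09, edgeR adjusted p = 0.224). Here control replicate 1 lay among the shSamd14 libraries and far above the other control libraries.

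Both genes passed without control replicate 1. Without it the log2 fold change was 0.32 for Itga2b (edgeR adjusted p = 0.0328) and 0.37 for Itgb3 (edgeR adjusted p = 0.0218). With that library kept, Itga2b also passed with no filter on low counts (edgeR adjusted p = 0.0280) and in DESeq2 (adjusted p = 0.0499). Over the 15 other fits the adjusted p of Itga2b lay between 0.0280 and 0.247 and that of Itgb3 between 0.0218 and 0.445. The ratio of Itgb3 to Itga2b, per length as TPM, was 0.487, 0.527 and 0.524 in shSamd14 and 0.536, 0.485 and 0.508 in control, so the chains of the fibrinogen receptor kept overlapping proportions in the groups.

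Cd9 was the exception to the higher values. It had 38.7, 41.2 and 41.5 CPM in shSamd14 and 41.5, 37.4 and 45.5 CPM in control. The shSamd14 libraries all lay within the control range. The log2 fold change was -0.04 (SE 0.08, edgeR adjusted p = 0.880), and its sign turned, to 0.03, without control replicate 3. Many kinds of blood cell carry Cd9. Of those, neutrophils were represented by 10 markers that summed to 3886, 4087 and 5743 CPM in shSamd14 and 3584, 3497 and 5611 CPM in control, with replicate 3 highest in each group. The part of these cells in the Cd9 value was not tested.

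Cd226 was low. It had 57, 46 and 56 estimated counts in shSamd14 and 23, 40 and 17 in control, or 2.28, 1.93 and 2.07 CPM against 1.11, 1.74 and 0.708 CPM. The groups did not overlap, and control replicate 2 stood close to the shSamd14 libraries. The log2 fold change was 0.82 (SE 0.27, edgeR adjusted p = 0.149), and without control replicate 2 it was 1.22 (edgeR adjusted p = 0.0356; 0.0356 to 0.406 over 14 other fits). RSEM gave its transcripts a mean length of 2357 bases in every shSamd14 library and of 2004, 2357 and 1666 bases in control, so its TPM also reflects which isoforms the reads were assigned to. T and NK cells also carry this receptor. Of their 13 markers, Ncr1, Klrb1c, Tbx21 and Gzma were at 0 in all libraries and Nkg7 alone passed the filter on low counts. These markers summed to 8.86, 11.02 and 14.4 CPM in shSamd14 and 7.33, 7.49 and 10.9 CPM in control, mostly from Nkg7. The part of these or of other cells in the Cd226 value was not tested.

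**Figure D2:**
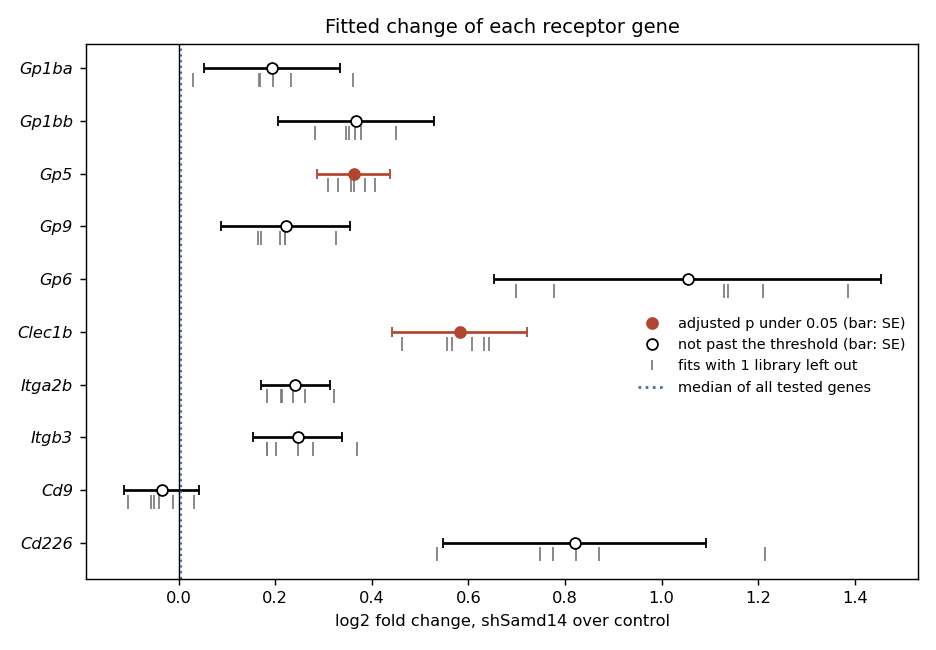
Points show the log2 fold change of shSamd14 over control from the fit with all libraries and bars its standard error; grey ticks show the 6 fits with 1 library left out, and the dotted line the median of all tested genes. Gp5 and Clec1b are past the threshold, Gp6 and Cd226 have the widest bars, and Cd9 is the only gene with a value below 0.

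The late genes were higher in sum in every shSamd14 library, and the early genes were not. The 6 late genes summed to 74.1, 75.9 and 70.6 CPM in shSamd14 and 64.0, 58.5 and 52.9 CPM in control. Means were 73.5 ± 2.74 CPM in shSamd14 and 58.5 ± 5.52 CPM in control (SD, n = 3 each), 1.26-fold, and the groups did not overlap. The 3 early genes summed to 342.02, 348 and 367 CPM in shSamd14 and 342.04, 284 and 288 CPM in control, with means of 352 ± 13.04 and 305 ± 32.3 CPM in shSamd14 and control, 1.16-fold. Here the groups touched, since control replicate 1 equalled the lowest shSamd14 library. Whether late and early genes differ in their change was not tested. The late share of the early and late TPM was 29.9%, 29.6% and 27.6% in shSamd14 and 25.7%, 27.7% and 25.3% in control, with control replicate 2 slightly above shSamd14 replicate 3. All 10 genes together had 243, 256 and 266 TPM in shSamd14 and 245, 204 and 209 TPM in control.

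**Figure D3:**
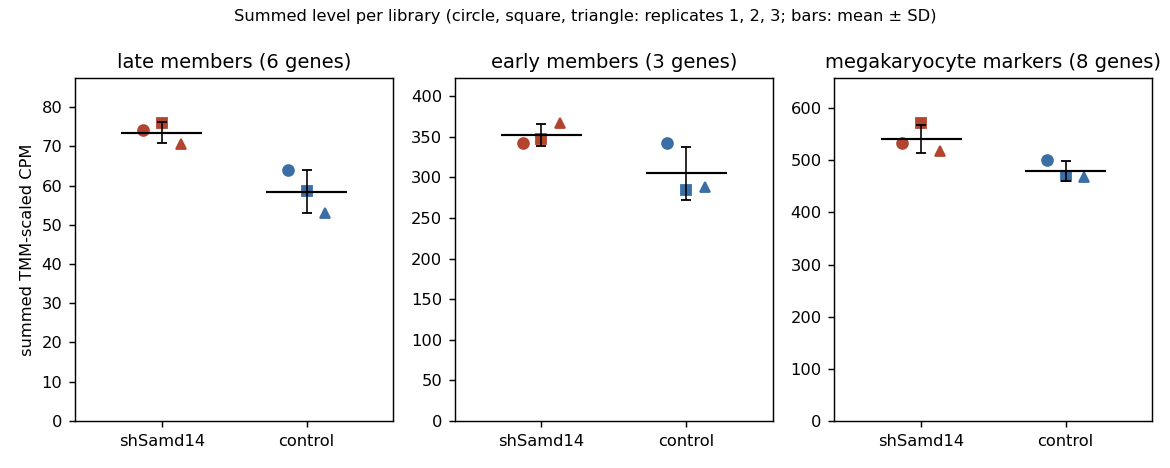
Summed TMM-scaled CPM per library of the 6 late receptor genes, the 3 early receptor genes and 8 megakaryocyte markers, shSamd14 on the left and control on the right of each panel; bars are the mean ± SD of 3 libraries. The late genes separate the groups, while control replicate 1 of the early genes sits level with shSamd14 replicate 1.

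General markers of megakaryocytes moved with the receptor genes. The 8 markers, among them Pf4, Ppbp, Tubb1 and Plek, summed to 534, 572 and 518 CPM in shSamd14 and 502, 470 and 468 CPM in control, and 3 of the 8 rose and none fell. Plek, which is also expressed in myeloid cells, made up much of this sum. Leaving it out, a choice made after its values were seen, gave 282, 295 and 285 CPM in shSamd14 and 237, 232 and 235 CPM in control. Set against these 7 markers, the late receptor genes had ratios of 0.263, 0.258 and 0.248 in shSamd14 and 0.270, 0.252 and 0.225 in control, which overlap. The early genes had ratios of 1.21, 1.18 and 1.29 in shSamd14 and 1.44, 1.22 and 1.23 in control, which also overlap. The overlap of the late ratios rests on leaving Plek out. Against all 8 markers the late ratio was higher in every shSamd14 library than in any control library, while the early ratios still overlapped. The part of megakaryocyte number in the receptor values was not tested. Erythroid markers, from the sister lineage, were also higher in sum, at 8419, 7469 and 8378 CPM in shSamd14 and 6376, 5413 and 7293 CPM in control, of which 1 of 14, the carbonic anhydrase gene Car1, rose and none fell. Stem and progenitor markers summed lower, at 547, 554 and 519 CPM in shSamd14 and 742, 641 and 593 CPM in control, with 1 of 7 tested, Slamf1, higher and none lower in edgeR. Kit made up most of this sum in both groups. The 7 tested markers did not fall as a list: their median log2 fold change was -0.005, and 3 were positive. The part of erythroid, stem and progenitor cells in the receptor values was not tested. The summed markers of mast cells and basophils, eosinophils, monocytes and macrophages, B cells, endothelium and liver overlapped between the groups, and none of their genes passed in edgeR.

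Per length, the receptor genes spanned a wide range of levels in these progenitors. Over the 6 libraries mean TPM was 74.8 for Itga2b, 57.5 for Cd9, 38.3 for Itgb3 and 25.3 for Gp5. Below these came Gp9 with 13.9, Clec1b with 11.5, Gp1ba with 10.8, Gp1bb with 3.14, Cd226 with 1.23 and Gp6 with 0.787 TPM. The ranges of Itga2b and Cd9 overlapped, as did those of the neighbours Gp9 and Clec1b, Clec1b and Gp1ba, and Cd226 and Gp6. All other neighbours in this order were apart in every library. Clec1b lay above Gp1ba in every shSamd14 library, with means of 13.9 ± 0.367 and 11.5 ± 0.357 TPM (SD, n = 3 each). In control the means were 9.13 ± 1.33 TPM for Clec1b and 10.06 ± 2.56 TPM for Gp1ba (SD, n = 3 each), but the order varied by library. Control replicates 1, 2 and 3 had 9.7, 10.08 and 7.61 TPM of Clec1b and 12.78, 9.7 and 7.69 TPM of Gp1ba.

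Ligands and partners of the receptors did not shift in 1 direction. Of 13 listed genes 11 were tested, and Vwf, which encodes von Willebrand factor, rose while none fell. Without adjustment edgeR gave a p under 0.05 for 1 gene higher and 2 lower. By CPM, all shSamd14 libraries lay above all control libraries in 1 tested gene and below them in 3. These patterns held for 10.5% and 10.2% of all tested genes. Vwf had 30.2, 32.7 and 33.1 CPM in shSamd14 and 27.8, 24.4 and 22.1 CPM in control, a log2 fold change of 0.37 (SE 0.09, edgeR adjusted p = 0.0367). Vwf missed the threshold in limma on log2(TPM + 1) (adjusted p = 0.223) and on log2(TPM + 0.1) (0.228). Fcer1g, the signalling chain of glycoprotein VI, had 26.9, 25.6 and 36.0 CPM in shSamd14 and 24.7, 23.3 and 37.9 CPM in control, with replicate 3 highest in each group. The median log2 fold change of the list was 0.002, and it was -0.13 without shSamd14 replicate 3, -0.07 without control replicate 1 and -0.09 without control replicate 2, so its sign is not settled.

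In the signalling path below glycoprotein VI and CLEC-2, 18 of 19 listed genes were tested, 2 rose and none fell. Lat, the adaptor that gathers the signalling complex, had 15.7, 15.6 and 13.8 CPM in shSamd14 and 10.9, 11.9 and 9.78 CPM in control, 1.39-fold (edgeR adjusted p = 0.0288). Src, a kinase that starts integrin signalling, had 3.91, 3.52 and 2.89 CPM in shSamd14 and 2.32, 1.70 and 1.62 CPM in control, 1.84-fold (edgeR adjusted p = 0.0310). Src missed the threshold in limma on log2(TPM + 1) (adjusted p = 0.178) and on log2(TPM + 0.1) (0.167). Syk, the kinase next to the receptors, had 81.8, 82.3 and 98.1 CPM in shSamd14 and 90.4, 82.7 and 86.7 CPM in control, with overlapping groups. The median log2 fold change of the list was 0.06, and it was slightly below 0 without shSamd14 replicate 3.

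Of 15 tested genes that bear on integrin activation, inhibitors among them, none passed. The smallest p belonged to Sharpin, an inhibitor of integrin activation, with 36.2, 35.6 and 36.2 CPM in shSamd14 and 29.3, 30.8 and 34.2 CPM in control (edgeR adjusted p = 0.224). Without adjustment edgeR gave a p under 0.05 for 1 gene, higher, and for none lower. DESeq2 and limma-voom called none either, with 3 and 2 genes higher and none lower at an unadjusted p under 0.05. The median log2 fold change was 0.10, and 0.06 without control replicate 2.

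Other receptors of the platelet surface had a median log2 fold change of 0.25, which was 0.16 without shSamd14 replicate 3 or without control replicate 2. Positive values were found in 22 of the 23 tested, against 51.6% of all tested genes. The exception was Itgb1, the most abundant gene of the list. It had 291, 309 and 284 CPM in shSamd14 and 357, 334 and 324 CPM in control (edgeR adjusted p = 0.136). In sum the list was not higher, at 611, 647 and 645 CPM in shSamd14 and 673, 624 and 627 CPM in control. Of the 23 tested, 3 rose and none fell: F2rl3 and F2rl2, the thrombin receptors PAR4 and PAR3, and Treml1, a receptor stored in alpha granules. F2rl3 had 3.31, 3.02 and 3.67 CPM in shSamd14 and 1.64, 2.13 and 1.87 CPM in control, 1.77-fold (edgeR adjusted p = 0.0272). F2rl2 had 18.6, 17.9 and 15.3 CPM in shSamd14 and 13.9, 12.9 and 10.9 CPM in control, 1.38-fold (edgeR adjusted p = 0.0425). In mouse platelets PAR3 presents thrombin to PAR4. Treml1 had 9.55, 9.47 and 7.59 CPM in shSamd14 and 5.89, 6.53 and 5.79 CPM in control, 1.46-fold (edgeR adjusted p = 0.0412). In all these genes the groups were apart. DESeq2 and limma-voom each called 2 of the list higher and none lower: F2rl3 missed in DESeq2 (adjusted p = 0.0556), Treml1 in limma-voom (0.0528), and F2rl2 in limma on log2(TPM + 1) and log2(TPM + 0.1) (0.0809 and 0.0840).

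Among lineage genes outside the receptor set, 9 of 23 late megakaryocyte genes rose and none fell, with a median log2 fold change of 0.43. The 4 with the smallest p were Rab27b, a GTPase of granule release, the chemokine gene Pf4, the tubulin gene Tuba8 and Mylk, which encodes myosin light chain kinase. Tuba8 had 14.97, 15.1 and 16.6 CPM in shSamd14 and 10.05, 11.8 and 11.1 CPM in control. Mylk had 4.03, 3.69 and 3.56 CPM in shSamd14 and 2.17, 2.31 and 1.91 CPM in control. Of 12 early genes, mostly transcription factors such as Gata2, Fli1 and Runx1, none passed in edgeR or limma-voom, and DESeq2 called 1 higher; their median was 0.15. Unadjusted, 5 early genes had an edgeR p under 0.05, all higher. Gfi1b, a transcriptional repressor that acts in the megakaryocyte and red cell lineages, had the smallest p among them. It had 156, 139 and 138 CPM in shSamd14 and 120, 128 and 121 CPM in control (edgeR adjusted p = 0.0821). Treml1, F2rl2 and Vwf also stand in the late list, and Pf4, Treml1 and Plek stand in both the late list and the megakaryocyte markers.

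Many of these calls were lost with 1 library fewer, while the log2 fold changes kept their sign. Of the 10 genes named above from the ligand, signalling, surface and late lists as past the threshold, all 10 missed it without shSamd14 replicate 2 (edgeR adjusted p 0.0719 to 0.178), 7 without control replicate 1 (0.0613 to 0.175), 7 without control replicate 3 (0.0648 to 0.140) and 6 without shSamd14 replicate 1 (0.0688 to 0.153). Of the same 10 genes, 4 missed it without control replicate 2 (0.0591 to 0.0910) and 3 without shSamd14 replicate 3 (0.0573 to 0.107). In these fits the log2 fold change lay between 0.41 and 0.56 for Rab27b, between 0.44 and 0.56 for Tuba8, between 0.39 and 0.54 for Lat and between 0.74 and 0.88 for Mylk.

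**Figure D4:**
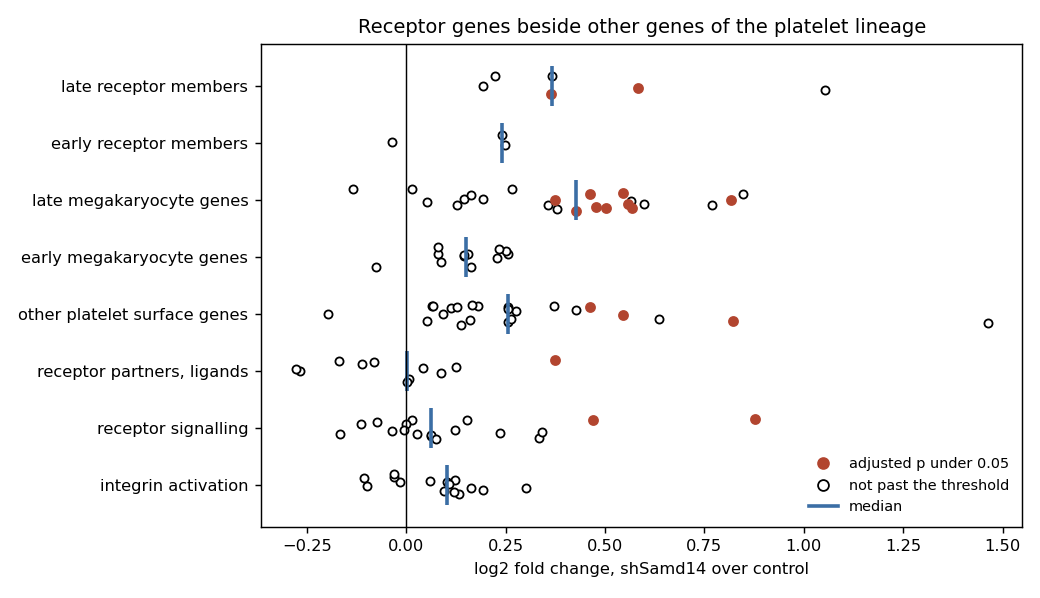
Log2 fold changes of shSamd14 over control for each tested gene, by list, with genes past the threshold filled and the list median as a bar; height within a row has no meaning. Filled points lie to the right of 0 in every list that has any, and the medians of the late receptor and late megakaryocyte rows are 0.37 and 0.43.

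The genes whose pattern over the 6 libraries was most like the summed receptor genes were Kalrn, Il17ra, Zfyve16, Ubash3b, Pbrm1 and Kdm5b. Most of that sum came from Itga2b and Itgb3, so the likeness is mainly to these integrin genes and little to Gp5 or Clec1b. Likeness was the root mean square difference between centred log2 CPM profiles, over 8769 genes at a mean of at least 10 CPM. This difference was 0.024 for Kalrn and 0.042 to 0.047 for the others, against a median of 0.172 over all ranked genes. Kalrn, which encodes a guanine nucleotide exchange factor, had 22.001, 22.2 and 23.7 CPM in shSamd14 and 22.2, 18.2 and 18.5 CPM in control, with control replicate 1 high as for the integrin genes.

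Genes that rose over the whole table had been found earlier, in these same data, to be rich in either of a pair of 7-base words in the 3′ untranslated region (UTR), CTGATTA and its shifted form TGATTAA. A second pair, CAAGTGT and its shifted form AAGTGTA, had been found among genes that fell. The longest annotated 3′ UTR of 59.9% of genes that rose held the first kind, against 14.3% of genes that did not pass. Among the receptor genes Cd226 alone held it, and neither Gp5 nor Clec1b held a word of either kind; their 3′ UTRs are short, at 466 and 198 bases, against 3148 bases for Cd226. The second kind, in 22.2% of genes that did not pass, was held by Itgb3 alone, whose 3′ UTR has 3331 bases.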

How the data were processed

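Per the file headers, the deposited files are RSEM tables, 1 for each library, holding each gene's expected count, TPM, FPKM and mean transcript length. The submitters' processing notes list RSEM 1.2.15, Bowtie 1.0.1, CASAVA 1.8.2 and mm10, without roles or settings. Strand use and annotation release are not stated in them. Expected counts, as the authors deposited them, share a read that maps to several genes between them. TPM was used to compare genes per length. FPKM, as deposited, was read only for a check, and rescaled it differed from TPM by at most 1.23%.

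Of 24376 IDs, 23580 had a symbol in GENCODE M21, whose coordinates are used. Expected counts were rounded, then tested in R 4.3.3 with edgeR 4.0.16: filterByExpr (minimum count 10, total 15), TMM factors, robust dispersions, quasi-likelihood test, two-sided, Benjamini-Hochberg adjustment over 12670 genes. The SE of a log2 fold change was obtained from its size and the F statistic (size over root F). CPM are scaled by TMM library sizes; 3 counts are 0.113 to 0.146 CPM, for counting error only. On simulated data for this comparison (5 sets, 12670 genes, 200 changed) changes of 1.25-fold were found in 38% of cases, of 1.5-fold in 74.4% and of 2-fold in 94%, and 5.65% of the called genes had not been changed. Each simulated gene was given the dispersion of the fitted trend and no spread of its own, so these shares may be too favourable for the real libraries.

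Alternatives were other size factors, no filter or 1 CPM in 3 libraries, DESeq2 1.42.0, limma 3.58.1 (voom, log2(TPM + 1), log2(TPM + 0.1)), a block for the replicate number, an adjusted p under 0.01, and each library left out. Libraries of a group differed far beyond counting noise (chi-square per gene 5.73 to 12.2). Named genes are the receptor genes, Samd14, Sept5, the 6 most alike genes, and in each list up to 4 past the threshold or else the one with the smallest p. Kit, Tfrc, Fcer1g, Syk, Clec9a, Car1, Itgb1 and genes of marker lists were named after their values were seen. The receptor genes and lists were chosen with earlier results of these data known, and no p is given for a list. Some genes of the lists are not reported here by name.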

Additional observations from a re-analysis of the deposited data

How the results depend on the processing

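The summed level of the 10 receptor genes was 1.17-fold higher in shSamd14 and 1.14- to 1.247-fold higher with 1 library left out; TPM, CPM without TMM factors and leaving out Itga2b gave 1.16 to 1.18. Of 145 alternative values for single receptor genes, 128 kept their direction and side of the threshold, 9 lost and 7 gained significance, and 1 turned sign (the log2 fold change of Cd9, -0.11 to 0.032 with 1 library left out). The 2 receptor genes called became 4 with the replicate block, none at an adjusted p under 0.01, and 0 to 3 with 1 library left out.

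Over all genes the 327 calls (167 higher, 160 lower) became 168 (106 and 62) with log2(TPM + 1), 170 (106 and 64) with log2(TPM + 0.1), and 104 (61 and 43) at an adjusted p under 0.01. With no filter on low counts 261 were lower. With 1 library left out the counts ran from 128 to 283, 63 to 133 higher and 65 to 163 lower. The replicate block gave 682 (322 and 360), but same-numbered libraries deviated together with r of -0.0773, 0.199 and 0.344 and only 3 of 6 libraries were most alike to their own number, so the numbers were not taken as pairs. Under the block Itga2b (adjusted p = 0.0280) and Cd226 (0.0371) passed in edgeR as well. Depth limits Gp6 and Cd226 most.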
